A study of Mus musculus with 31 samples.

Results

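The Vav exchange factors and the Rac pathway were followed here as 10 genes: the guanine nucleotide exchange factors Vav1, Vav2, Vav3, Dock2, Dock8 and Tiam1, the GTPases Rac1, Rac2 and Cdc42, and the effector Was. They were found by symbol, and all 10 were listed in each of the 31 libraries, out of 55276 symbols in the pre-lymphoma and CD4-Cre tables and 49315 Ensembl genes in the CD4-CreERT2 tables. All 10 passed the filter on low counts in each of the 13 comparisons below.

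The study sequenced polyA RNA of C57B/6 mice in 3 sets of libraries, from CD4+ T cells or whole spleen, with normal, pre-lymphoma and tumor status in a model of the Vav1-Myo1f fusion. The pre-lymphoma set held CD4+ cells only. Of its libraries, 3 have a genotype label with Vav1Myo1ffl/wt;CD4CreERT2 (Vav1Myo1f) on both sides of a slash, called fusion/fusion here, 3 have CD4-Cre-ERT2(WT) before the slash, called control/fusion, and 2 normal ones are labelled CD4-Cre-ERT2(WT), called control. The CD4-Cre set held tumors of genotype CD4-CreVav1Myo1f fl/wt (4 CD4+ and 3 spleen libraries) and normal mice labelled CD4-Cre(WT) (3 CD4+ and 3 spleen libraries). The CD4-CreERT2 set held tumors of genotype CD4-CreERT2Vav1Myo1f fl/wt (2 CD4+ and 3 spleen libraries) and normal mice labelled CD4-CreERT2 (WT) (2 CD4+ and 3 spleen libraries). The labels give no age and no tamoxifen dose and do not define the slash, and every group, controls included, carries a Cre driver in its label. CreERT2 enters the nucleus when its hormone-binding part is bound by tamoxifen, whereas CD4-Cre acts during T cell development and so also reaches CD8 T cells.

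Vav proteins are recruited to the activated T cell receptor through adaptor proteins and load Rac GTPases with GTP, which drives actin polymerisation at the contact with the antigen-presenting cell. DOCK-family factors load Rac or Cdc42 through another catalytic domain and serve lymphocyte migration, and Tiam1 is a Rac-directed factor of the Dbl family. Loaded Cdc42 opens the Wiskott-Aldrich syndrome protein, the product of Was, which then activates the Arp2/3 actin nucleator.

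Promoters are shown for Vav1, Dock8 and Tiam1, whose levels differed from control in 1 or both pre-lymphoma groups, and for Dock2, which differed between tissues. RefSeq promoter entries on GRCm38.p6, each 300 bases long, were present for 8 of the 10 genes, with 11 promoters in all, and Rac1 and Rac2 had none. The capitals mark the letters GGAAGT, an ETS core, searched on both strands (ACTTCC where it lies on the other strand). The promoter of Vav1 lies at chr17:57278850-57279149 (plus strand), that of Dock8 at chr19:24999279-24999578 (plus strand), that of Dock2 at chr11:34783856-34784155 (minus strand), and the Tiam1 promoter shown at chr16:89818303-89818602 (minus strand).
Vav1: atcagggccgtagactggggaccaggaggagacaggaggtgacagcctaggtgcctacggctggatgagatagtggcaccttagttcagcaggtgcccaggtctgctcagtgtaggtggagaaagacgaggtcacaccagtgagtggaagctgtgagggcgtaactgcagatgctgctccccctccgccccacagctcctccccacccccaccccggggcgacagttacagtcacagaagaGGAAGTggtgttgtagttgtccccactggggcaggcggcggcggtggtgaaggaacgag
Dock8: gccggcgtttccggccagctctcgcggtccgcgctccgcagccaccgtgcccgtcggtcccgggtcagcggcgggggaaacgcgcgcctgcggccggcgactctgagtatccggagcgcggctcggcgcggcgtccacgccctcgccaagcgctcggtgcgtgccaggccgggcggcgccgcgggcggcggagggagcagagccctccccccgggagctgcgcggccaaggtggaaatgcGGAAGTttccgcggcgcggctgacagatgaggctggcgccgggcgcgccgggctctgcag
Dock2: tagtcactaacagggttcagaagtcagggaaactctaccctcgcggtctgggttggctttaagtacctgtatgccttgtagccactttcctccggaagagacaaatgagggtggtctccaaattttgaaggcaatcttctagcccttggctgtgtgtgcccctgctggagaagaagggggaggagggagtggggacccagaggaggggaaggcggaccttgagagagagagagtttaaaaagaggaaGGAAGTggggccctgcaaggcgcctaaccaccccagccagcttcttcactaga
Tiam1: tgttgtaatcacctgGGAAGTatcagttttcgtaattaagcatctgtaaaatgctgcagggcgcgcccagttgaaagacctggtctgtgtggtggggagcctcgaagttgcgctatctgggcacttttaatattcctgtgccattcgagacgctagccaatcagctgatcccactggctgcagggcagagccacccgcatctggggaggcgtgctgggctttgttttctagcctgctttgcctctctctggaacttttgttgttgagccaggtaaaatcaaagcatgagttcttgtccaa
The letters occurred in 9 of the 11 promoters, against 23.8% of 32851 RefSeq promoters of the same length. Each of the 8 genes held them in at least 1 promoter, but the share of 23.8% counts promoters and not genes. Relative to the start site, the first base of the letters lay at -9 in Vav1, -10 in Dock8, -3 in Dock2 and -235 in Tiam1. The other Tiam1 promoter entry, at chr16:89974650-89974949, did not hold them. It lies nearer to the upstream end of the gene (chr16:89787111-89980080, minus strand), and the entry shown lies farther inside the gene. A match of these letters describes the sequence and is not a binding site. Letters of 2 other factor families were searched as well and are not shown. Those of RUNX occurred in 2 of the 11 promoters, against 16.8% of the 32851, and those of the other family in 0, against 11.2%. Of the 3 promoter entries of Vav3, 2 overlap each other, so the 11 promoters are not all separate.

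Gene counts per library were 12632196 to 29257595 in the pre-lymphoma set, 24480017 to 37568512 in the CD4-Cre set and 24772099 to 36879923 in the CD4-CreERT2 set. Counts of Xist and Ddx3y marked 1 of the 8 pre-lymphoma libraries, the control/fusion library TA020, as female. In the CD4-CreERT2 set all control libraries were marked female, whereas tumor mice VM231 and VM294 were male and VM236 female. In the CD4-Cre set control mice VM211 and VM216 and tumor mouse VM388 were male, and the other libraries female. In the tumor comparisons sex and tumor status thus cannot be fully told apart. The spleen of tumor mouse VM294 stood apart: its 6 plasma cell markers summed to 67738 CPM (counts scaled to library size), against 3155 and 7449 CPM in the other 2 tumor spleens of its set, and its 10 T cell markers to 868 CPM, against 1364 and 2567 CPM. Myo1f, the class I myosin joined to Vav1 in the fusion, had 143, 180.0 and 171 CPM in fusion/fusion cells and 149.9, 156 and 172 CPM in control/fusion cells, against 83.0 and 70.7 CPM in control cells. It was higher in both pre-lymphoma groups (log2 fold change 1.10 ± 0.11 SE in fusion/fusion and 1.05 ± 0.11 in control/fusion cells, edgeR adjusted p = 5.11e-05 and 0.00047), with no overlap with control. Counts per gene do not separate reads of the fusion transcript from reads of intact Vav1 or Myo1f.

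Levels of different genes were compared as CPM per kb of exon. In control CD4+ cells of the CD4-Cre set Rac2, the Rac of blood cells, was highest at 580.3 ± 24.7 CPM per kb (SD, n = 3), followed by Cdc42 at 341 ± 36.7, and their ranges did not overlap. Rac1 (78.2 ± 4.96), Vav1 (71.3 ± 5.15), Dock2 (55.9 ± 13.6) and Dock8 (38.9 ± 3.32 CPM per kb) came next, each overlapping its neighbour in that order. Was (9.86 ± 0.768), Vav3 (5.54 ± 0.481), Vav2 (5.03 ± 0.424) and Tiam1 (2.26 ± 0.391 CPM per kb) were lowest, and of these neighbours only Vav3 and Vav2 overlapped. Rac2 and Cdc42 held the first and the second place in all 11 groups, although their ranges overlapped in the tumor spleens of both sets. The place of Rac1 is uncertain, since 51.4% of its exon length overlaps Daglb on the opposite strand and no source used here says whether reads were counted by strand.

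**Figure D1:**
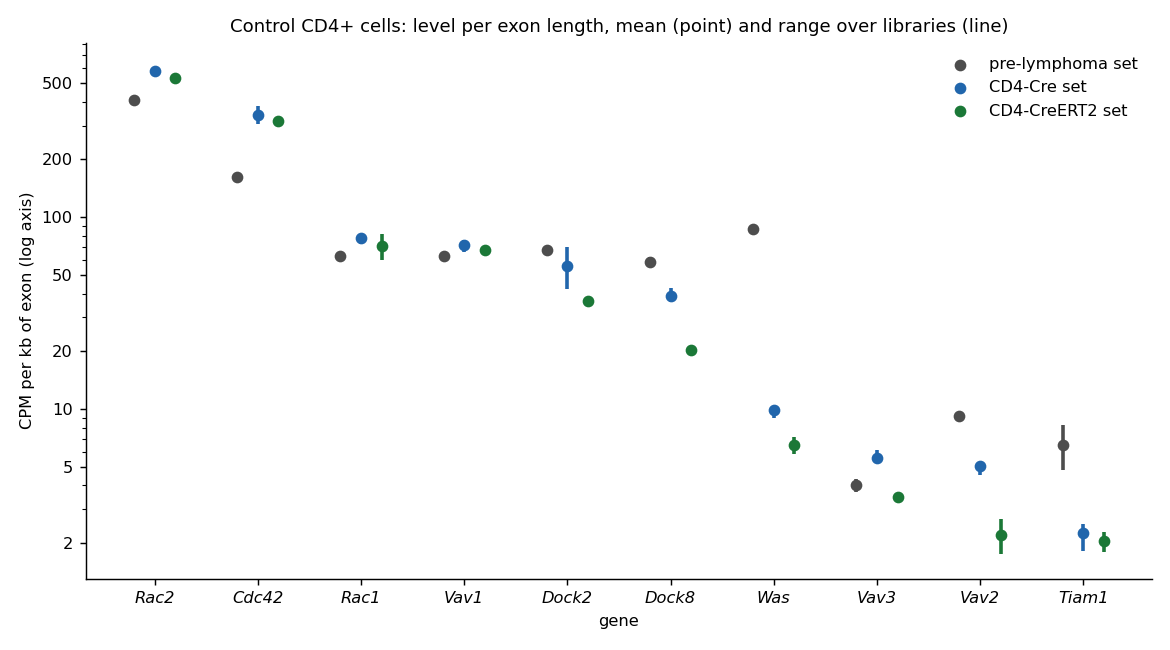
Level of each gene in control CD4+ cells as CPM per kb of exon (log axis), with the mean as a point and the range over libraries as a line, in the pre-lymphoma set (n = 2), the CD4-Cre set (n = 3) and the CD4-CreERT2 set (n = 2). Rac2 and Cdc42 lie at the top in each set, and Was averaged 86.4 CPM per kb in the pre-lymphoma set, 9.86 in the CD4-Cre set and 6.51 in the CD4-CreERT2 set.

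Vav1 took most of the summed per-length level of the 3 Vav genes in every group. In the pre-lymphoma set its share was 74.4% ± 0.976 in fusion/fusion and 74.9% ± 2.35 in control/fusion cells (SD, n = 3 each), against 82.6% ± 0.732 in control cells (n = 2). Vav2 made up 19.4% ± 0.472 in fusion/fusion and 19.0% ± 2.33 in control/fusion cells, against 12.1% ± 0.422 in control cells. Levels were not tested between sets, whose tables were deposited separately. Was had 211 and 201 CPM in control CD4+ cells of the pre-lymphoma set, 21.4, 24.4 and 24.6 CPM in those of the CD4-Cre set and 13.9 and 17.1 CPM in those of the CD4-CreERT2 set. Tiam1 had 81.8 and 47.4 CPM, 24.4, 24.9 and 17.9 CPM and 17.8 and 22.6 CPM in the same 3 groups. For these values the set and anything else that differed between the sets cannot be told apart.

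The first comparison asked which of the genes differed in CD4+ cells before lymphoma. In fusion/fusion cells 4 of the 10 genes were higher than in control cells (Tiam1, Cdc42, Rac1 and Rac2) and 2 were lower (Vav1 and Dock8), by edgeR's quasi-likelihood test at an adjusted p under 0.05. Of all 16257 genes tested, 23.8% were higher and 22% lower, so the share of the 10 that was lower lies near the background. All 3 GTPases rose by a similar amount, while the exchange factors went both ways. In control/fusion cells 4 genes were higher than in control (Tiam1, Vav2, Rac1 and Cdc42; 11.6% of all genes) and 1, Vav1, was lower (8.70% of all genes). Both comparisons use the same 2 control libraries.

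Vav1, the Vav factor of blood cells (chr17:57279100-57328031, plus strand, GRCm38), had 162, 161 and 168 CPM in fusion/fusion cells and 207, 195 and 187 CPM in control/fusion cells, against 237 and 225 CPM in control cells. The 3 groups did not overlap. The log2 fold change was -0.49 ± 0.06 in fusion/fusion cells (SE, edgeR adjusted p = 0.000207) and -0.23 ± 0.06 in control/fusion cells (adjusted p = 0.0309). Between the pre-lymphoma groups it was -0.26 ± 0.06 (adjusted p = 0.0133), lower in fusion/fusion cells.

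Vav2, the broadly expressed paralogue (chr2:27262104-27427033, minus strand), had 82.2, 76.1 and 81.8 CPM in fusion/fusion cells and 117, 84.3 and 81.7 CPM in control/fusion cells, against 66.9 and 59.7 CPM in control cells. Both pre-lymphoma groups lay above the controls, and the control/fusion library TA020 lay above all others. The change in control/fusion cells passed (0.57 ± 0.14, adjusted p = 0.0165), and that in fusion/fusion cells did not (0.34 ± 0.14, adjusted p = 0.0642, 95% interval 0.07 to 0.61). Without TA020, whose spread enters the shared fit, the fusion/fusion value was 0.34 ± 0.08 and passed (adjusted p = 0.00454), and without TA022 it passed as well (adjusted p = 0.0493). Without the control library TA019 it was 0.25 ± 0.17 (adjusted p = 0.296), and over all 13 alternatives it ranged from 0.25 to 0.41 with adjusted p-values of 0.00137 to 0.296. Vav3, the third paralogue (chr3:109340653-109685698, plus strand), had 24.8, 21.2 and 20.8 CPM in fusion/fusion cells and 28.9, 25.9 and 24.4 CPM in control/fusion cells, against 25.8 and 22.2 CPM in control cells. The groups overlapped and neither change passed (-0.10 ± 0.11 and 0.13 ± 0.11, adjusted p = 0.498 and 0.436).

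Tiam1 (chr16:89787111-89980080, minus strand) had the largest change of the 10 genes in both pre-lymphoma groups. It had 192, 173 and 184 CPM in fusion/fusion cells and 124, 139.8 and 134 CPM in control/fusion cells, against 81.8 and 47.4 CPM in control cells, and no group overlapped another. The log2 fold change was 1.50 ± 0.18 in fusion/fusion cells (adjusted p = 0.000119) and 1.04 ± 0.18 in control/fusion cells (adjusted p = 0.00362). The fusion/fusion value ranged from 1.16 to 1.94 over 13 alternatives, the lowest and highest when one or the other control library was left out. The difference between the pre-lymphoma groups missed the threshold (0.46 ± 0.15, adjusted p = 0.0579), and passed without either control library (adjusted p = 0.00297 without TA018 and 0.00299 without TA019).

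Dock8, a Cdc42-directed factor whose loss causes a human immunodeficiency (chr19:24999529-25202432, plus strand), was lower in fusion/fusion cells than in both other groups. It had 366, 332 and 352 CPM in fusion/fusion cells and 442, 474 and 435 CPM in control/fusion cells, against 486 and 428 CPM in control cells. Fusion/fusion libraries lay below all others, and the other groups overlapped. The change was -0.38 ± 0.08 against control (adjusted p = 0.00249) and -0.36 ± 0.07 against control/fusion cells (adjusted p = 0.00686), while control/fusion cells differed from control by -0.02 ± 0.08 (adjusted p = 0.871). Dock2, the Rac-directed DOCK factor of lymphocytes (chr11:34226815-34783892, minus strand), had 733, 723 and 775 CPM in fusion/fusion cells and 790.4, 892 and 871 CPM in control/fusion cells, against 799 and 741 CPM in control cells. Neither change against control passed (-0.05 ± 0.08 and 0.14 ± 0.08, adjusted p = 0.617 and 0.205).

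**Figure D2:**
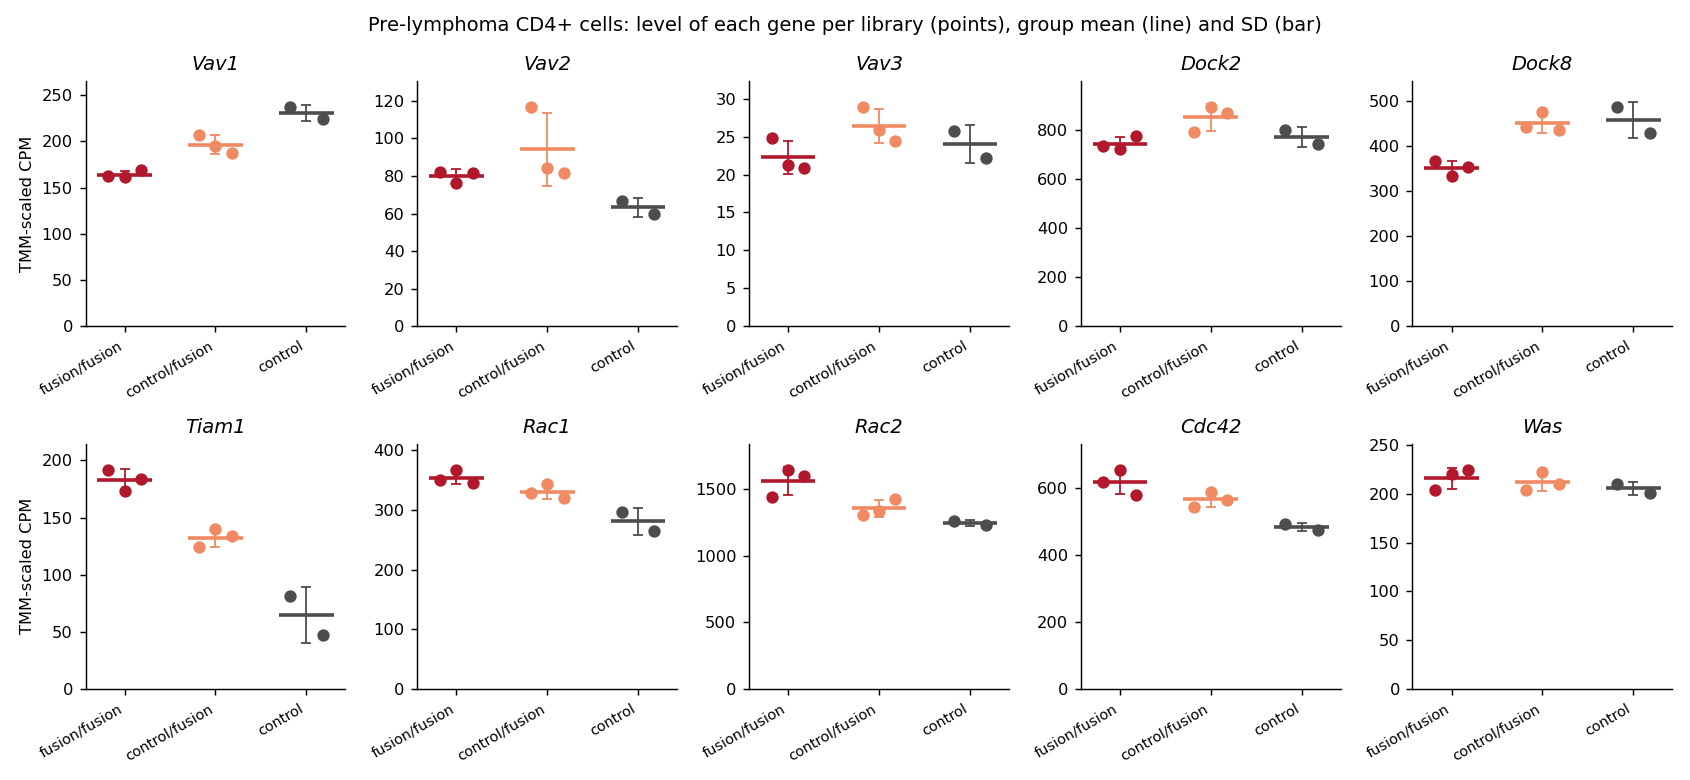
TMM-scaled CPM of the genes in the 8 pre-lymphoma libraries (points), with the group mean and SD, for fusion/fusion (n = 3), control/fusion (n = 3) and control cells (n = 2), on axes that start at 0. The fusion/fusion points are lowest for Vav1 and highest for Tiam1, with control/fusion between them and control, and Dock8 is lowest in fusion/fusion cells, at 332 to 366 CPM.

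Rac1, the widely expressed Rac (chr5:143503634-143528036, minus strand), had 349, 367 and 345 CPM in fusion/fusion cells and 328, 342 and 319 CPM in control/fusion cells, against 296 and 265 CPM in control cells. Rac2 (chr15:78559169-78572783, minus strand) had 1442, 1641 and 1596 CPM in fusion/fusion cells and 1303, 1336 and 1422 CPM in control/fusion cells, against 1258 and 1231 CPM in control cells. Cdc42, the GTPase that sets cell polarity (chr4:137319696-137357720, minus strand), had 619, 654 and 581 CPM in fusion/fusion cells and 545, 589.6 and 564 CPM in control/fusion cells, against 492 and 475 CPM in control cells. In each of the 3 genes both pre-lymphoma groups lay wholly above the controls, but the share of all genes that did so was not computed. The changes in fusion/fusion cells were 0.33 ± 0.07 for Rac1, 0.33 ± 0.08 for Rac2 and 0.35 ± 0.07 for Cdc42 (adjusted p = 0.00328, 0.00696 and 0.00269). In control/fusion cells Rac1 (0.23 ± 0.07, adjusted p = 0.0407) and Cdc42 (0.23 ± 0.07, adjusted p = 0.0481) passed and Rac2 did not (0.12 ± 0.08, adjusted p = 0.298). Was (chrX:8081453-8090498, minus strand) had 204, 220.0 and 225 CPM in fusion/fusion and 204, 223 and 209.8 CPM in control/fusion cells, against 211 and 201 CPM in control cells. Its groups overlapped, and its changes were 0.07 ± 0.07 and 0.05 ± 0.07 (adjusted p = 0.434 and 0.678, 95% intervals -0.07 to 0.21 and -0.09 to 0.18).

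**Figure D3:**
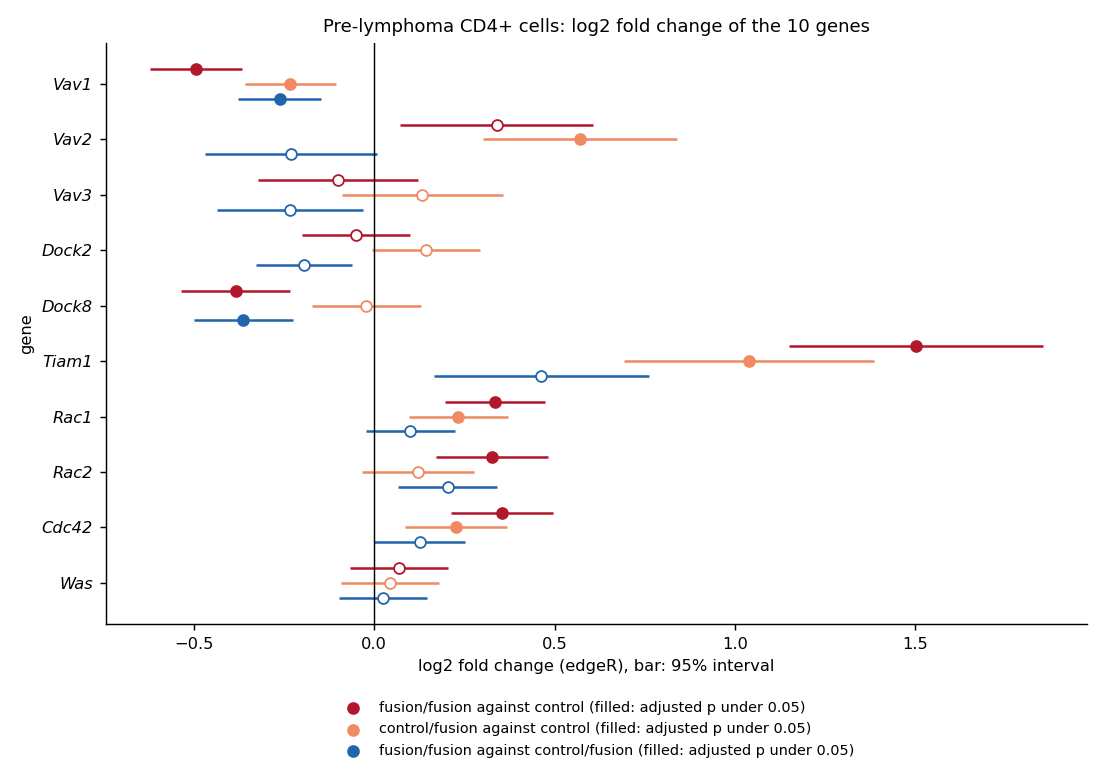
Log2 fold change of each gene in the pre-lymphoma set from edgeR (x axis), with bars for the 95% interval and filled points where the adjusted p is under 0.05, for fusion/fusion against control, control/fusion against control and fusion/fusion against control/fusion. The bars use the normal quantile and are too narrow for so few libraries. Tiam1 lies farthest right (1.50 and 1.04 against control) and Vav1 in fusion/fusion cells farthest left (-0.49).

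Between fusion/fusion and control/fusion cells 2 of the 10 genes differed, Vav1 and Dock8, both lower. None was higher, where 9.59% of all genes were higher and 9.30% lower. The libraries of Tiam1, Rac1 and Rac2 were wholly higher in fusion/fusion cells and those of Dock2 wholly lower, but the changes of Rac1 (0.10 ± 0.06), Rac2 (0.20 ± 0.07) and Dock2 (-0.19 ± 0.07) missed the threshold as that of Tiam1 did (adjusted p = 0.297, 0.0674 and 0.0719). How many of all genes lay apart in this way was not computed, and groups this small can lie apart by chance. The count of 2 became 1 without the fusion/fusion library TA024, where Vav1 had an adjusted p of 0.0503. The count of 5 in control/fusion against control became 1, Tiam1, without the control library TA019, 2 without TA021 or TA022, and 3 without TA018, TA020 or TA025. The count of 6 in fusion/fusion against control stayed at 6 or 7 when each library was left out.

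The wider pathway was described by lists chosen with results of these data known. Of 15 genes upstream of Vav, 4 were higher and 4 lower in fusion/fusion cells against control, where 23.8% of all genes were higher and 22.0% lower. Grap2, an adaptor that binds Lcp2, fell by 1.09 ± 0.08 on the log2 scale (adjusted p = 7.45e-06), while Lcp2, the SLP-76 adaptor that binds Vav1, rose by 0.50 ± 0.06 (adjusted p = 0.000155). Of 37 other exchange factors tested, 4 were higher and 10 lower, and Ect2, the factor of cell division, rose by 1.58 ± 0.24 (adjusted p = 0.000493). Of 30 GTPase-activating proteins and dissociation inhibitors, 10 were higher and 8 lower, led by Racgap1, the partner of Ect2 in cytokinesis, at 1.65 ± 0.09 (adjusted p = 1.98e-06). Of 15 other GTPases of the same family tested, 6 were higher and 2 lower, among them Rhoc at 1.55 ± 0.26 (adjusted p = 0.000935). Of 31 effectors tested, 13 were higher and 2 lower, with Abi2 and Cyfip1 of the WAVE complex at 1.05 ± 0.12 and 0.95 ± 0.14 and the Arp2/3 subunit Arpc4 at 0.55 ± 0.07 (adjusted p = 8.07e-05, 0.000447 and 0.000121).

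In control/fusion cells against control 2 were higher and 3 lower of the upstream genes, and 5 were higher and 4 lower of the exchange factors, where 11.6% of all genes were higher and 8.70% lower. In that comparison 10 were higher and 2 lower of the activating proteins and inhibitors, 2 were higher and 2 lower of the GTPases, and 10 were higher and 1 lower of the effectors. Between fusion/fusion and control/fusion cells 2 were higher and 14 lower of the other exchange factors, where 9.59% of all genes were higher and 9.30% lower. Among the lower ones was Rasgrf2, a Ras and Rac factor (-0.82 ± 0.17, adjusted p = 0.00892). The median log2 fold change in fusion/fusion cells against control was 0.20 over the 10 genes and -0.03 over the other exchange factors, against -0.01 over all genes tested.

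Markers of dividing cells differed between the same groups. All 10 cycling markers were higher in fusion/fusion cells, and they summed to 773 to 832 CPM in fusion/fusion and 386 to 459 CPM in control/fusion cells, against 149 to 231 CPM in control cells. All 9 erythroid markers tested were higher in fusion/fusion cells, at 347 to 400.0 CPM in fusion/fusion and 132 to 619.8 CPM in control/fusion cells, against 56.7 to 131 CPM in control cells. Dendritic cell markers, 4 of 8 higher in fusion/fusion cells, summed to 189 to 207 CPM in fusion/fusion and 186 to 259.6 CPM in control/fusion cells, against 80.8 to 111 CPM in control cells. Plasma cell markers, 5 of 6 higher in fusion/fusion cells, summed to 1285 to 1476 CPM in fusion/fusion and 604 to 724 CPM in control/fusion cells, against 437 to 668 CPM in control cells. T cell markers summed to 6037 to 6555 CPM in fusion/fusion and 5449 to 6010.3 CPM in control/fusion cells, against 5252 to 5531 CPM in control cells. Macrophage and monocyte markers summed to 2788 to 3676 CPM in fusion/fusion and 2764 to 5691 CPM in control/fusion cells, against 2211 to 2783 CPM in control cells, and NK cell markers to 68.3 to 68.6 CPM and 41.8 to 69.3 CPM, against 42.6 to 45.7 CPM. Stromal and endothelial markers summed to 201 to 213 CPM in fusion/fusion and 248 to 249 CPM in control/fusion cells, against 243 to 254 CPM in control cells. Of these 10 markers, 5 were higher and 1 lower in fusion/fusion cells against control (23.8% and 22% of all genes). Their median log2 fold change was 1.49, so the lower sum does not reflect most of the list. The part of all these markers in the results on the 10 genes was not tested. In bulk RNA, fewer cells of a type and less RNA per cell cannot be told apart.

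The next comparisons asked whether the genes differed in tumors. By edgeR none of the 10 passed in the 4 comparisons of tumor with control. As background, CD4+ cells of the CD4-Cre set had 0.0168% of 17841 tested genes above control and 0.140% below, and in the CD4-Cre spleens, the CD4-CreERT2 CD4+ cells and the CD4-CreERT2 spleens the shares were 0% above and 0% below. At an unadjusted p under 0.05 edgeR gave 2 of the 10 genes in CD4-Cre CD4+ cells (15.1% of all genes), 2 in CD4-Cre spleens (13.9%), 0 in CD4-CreERT2 CD4+ cells (5.17%) and 1 in CD4-CreERT2 spleens (20.1%). DESeq2 called 1, 1, 0 and 1 at the adjusted threshold in that order. The shares of all genes above are those of edgeR and are no background for the DESeq2 counts, whose own share is not given here.

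**Figure D4:**
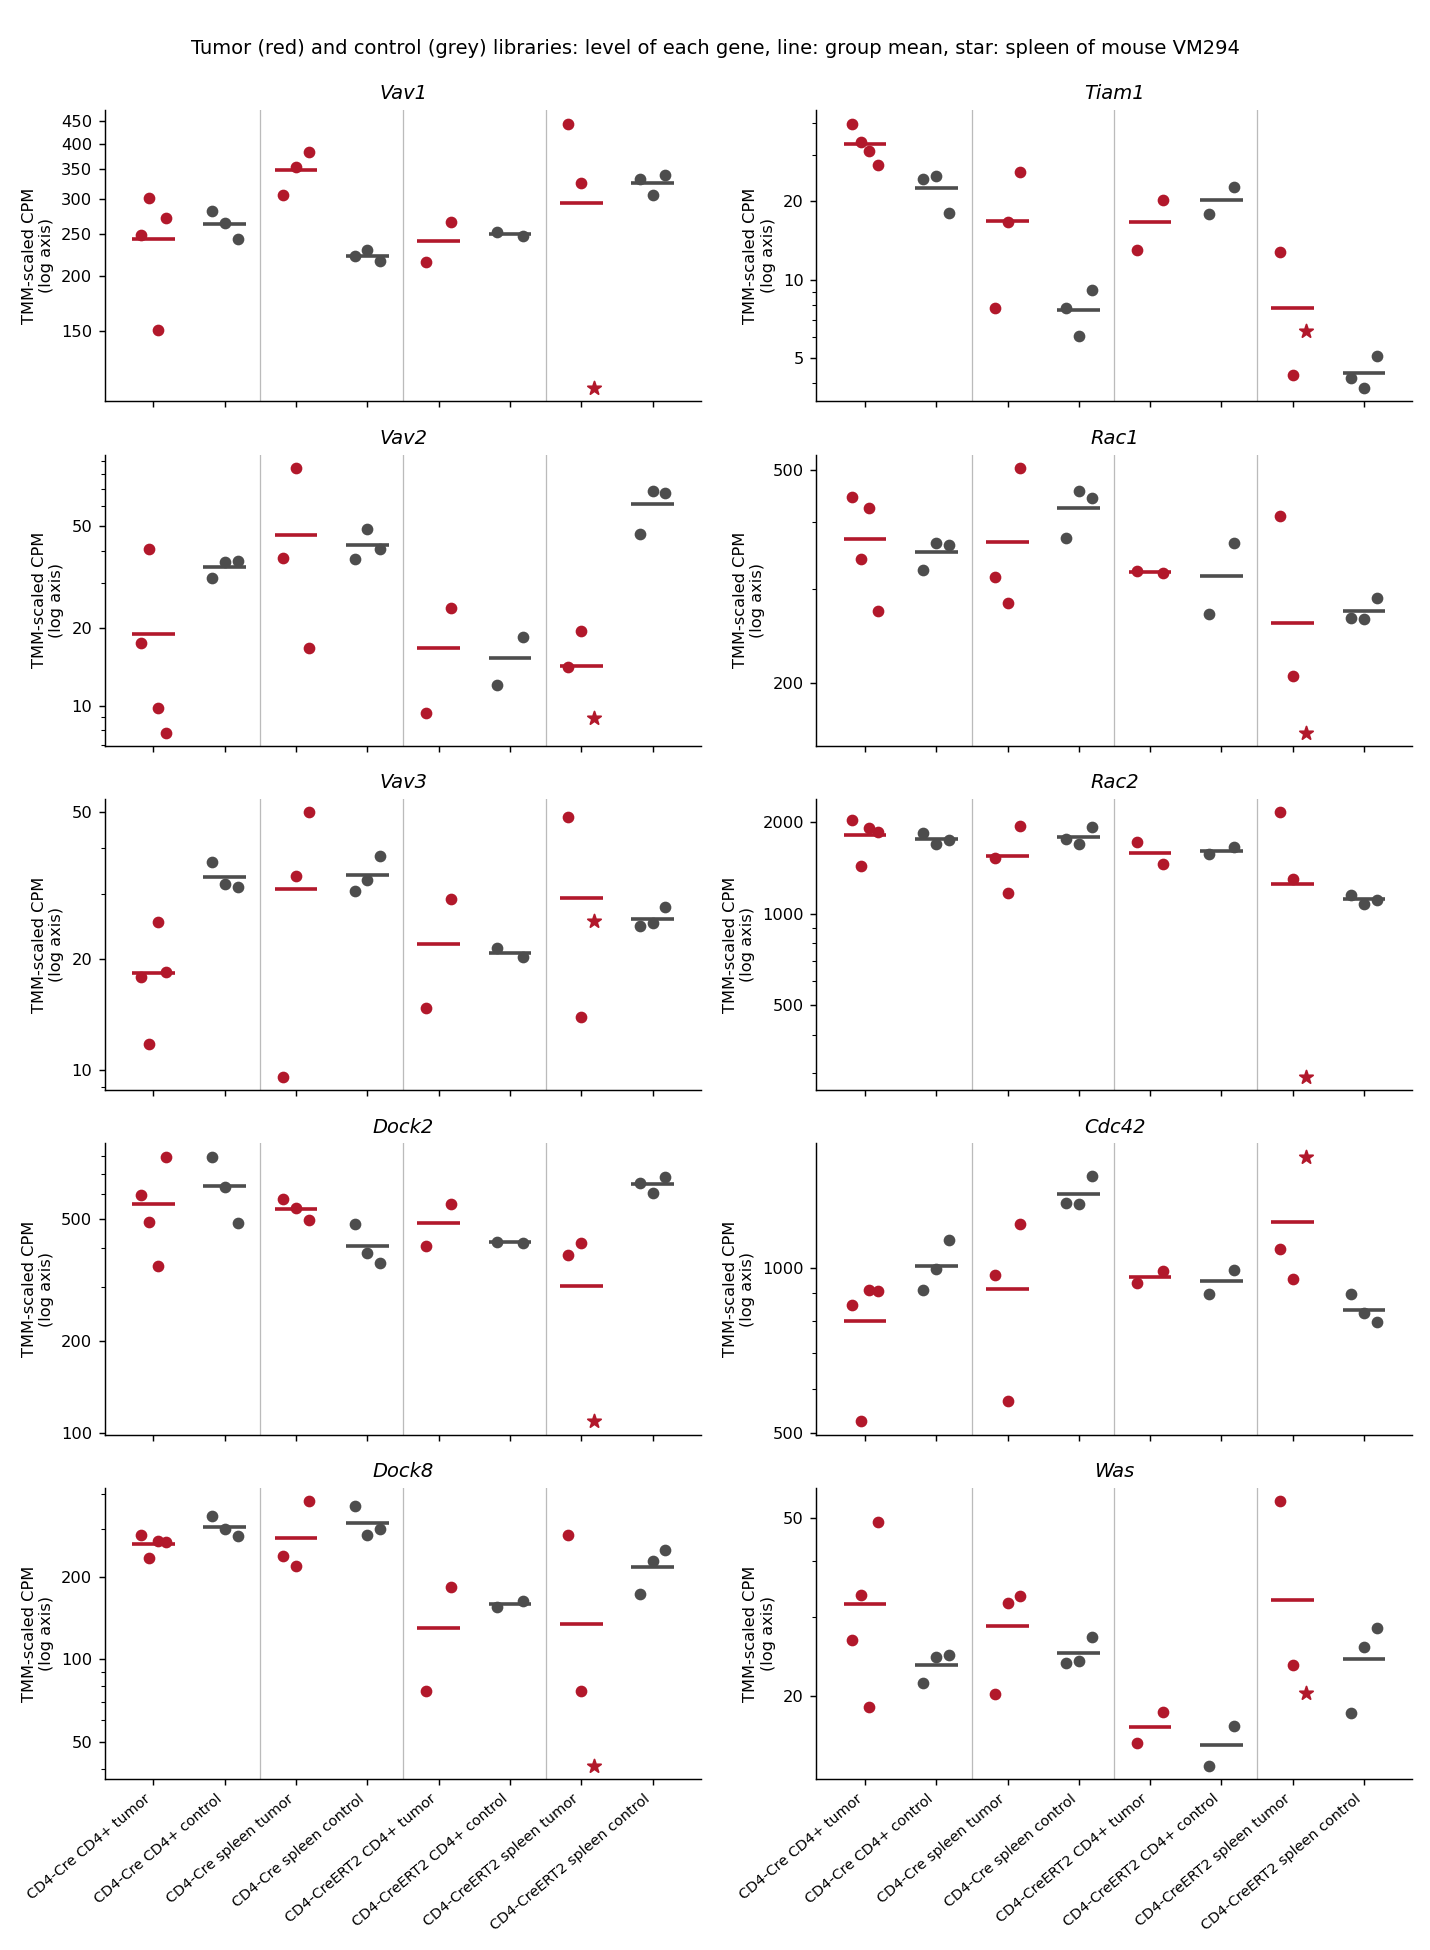
TMM-scaled CPM of the genes per library (log axes) in tumor and control libraries of the CD4-Cre and CD4-CreERT2 sets, CD4+ cells and spleen, with the group mean as a line and the spleen of mouse VM294 as a star. Vav2 spans 7.85 to 40.7 CPM in CD4-Cre CD4+ tumors and 31.4 to 36.5 CPM in their controls, and Rac2 in the VM294 spleen lies at 291 CPM.

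In CD4+ cells of the CD4-Cre set the libraries of Vav3 and Tiam1 did not overlap between the groups, though neither change passed by edgeR. The share of all genes without overlap was not computed, here or in the other comparisons. Vav3 had 17.9, 11.7, 25.2 and 18.4 CPM in tumors VM388, VM58, VM645 and VM98, against 36.6, 31.8 and 31.4 CPM in controls, all lower in tumors (-0.90 ± 0.26, adjusted p = 0.175). DESeq2 gave -0.90 ± 0.30 and an adjusted p of 0.0429, and over the alternatives the adjusted p ranged from 0.0429 to 0.513. Tiam1 had 39.7, 33.8, 31.3 and 27.6 CPM in tumors against 24.4, 24.9 and 17.9 CPM in controls, all higher in tumors (0.53 ± 0.20, adjusted p = 0.278). Vav2 had 17.5, 40.7, 9.78 and 7.85 CPM in tumors against 31.4, 36.4 and 36.5 CPM in controls, so that VM58 lay above the controls and the other tumors below them (-0.91 ± 0.53, adjusted p = 0.474). Cdc42 had 855, 525, 912 and 909 CPM in the same tumors, against 910.0, 995 and 1126 CPM in controls (-0.37 ± 0.23, adjusted p = 0.507).

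The other genes of these CD4+ cells overlapped between the groups. Vav1 ranged from 151 to 302 CPM in tumors, against 243 to 281 CPM in controls (-0.15 ± 0.24, 95% interval -0.62 to 0.33), and Rac2 from 1439 to 2037 CPM in tumors, against 1694 to 1843 CPM in controls (0.00 ± 0.19, 95% interval -0.37 to 0.38). Dock2, Dock8, Rac1 and Was differed by -0.23 ± 0.30, -0.24 ± 0.15, 0.04 ± 0.20 and 0.42 ± 0.32, and the lowest adjusted p among them was 0.503. T cell markers summed to 6653 to 8423 CPM in these tumors, against 4488 to 5034 CPM in controls, and macrophage and monocyte markers to 514 to 4589.6 CPM in tumors, against 5052 to 7406 CPM in controls. Dendritic cell markers summed to 29.1 to 135 CPM in tumors, against 379 to 569 CPM in controls, and CD8 T cell markers to 8.68 to 24.7 CPM in tumors, against 36.3 to 40.9 CPM in controls. NK cell markers summed to 6.52 to 103 CPM in tumors, against 110.4 to 162 CPM in controls, and stromal and endothelial markers to 36.3 to 107 CPM in tumors, against 121 to 133 CPM in controls. None of these ranges overlapped between tumors and controls, and their part in the results was not tested.

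In CD4-Cre spleens Vav1 had 306, 354 and 383 CPM in tumors VM388, VM58 and VM98, against 222, 229.5 and 216 CPM in controls. All tumors lay above all controls (0.65 ± 0.20, adjusted p = 0.275), and DESeq2 gave 0.66 ± 0.22 with an adjusted p of 0.0496, in a range of 0.0496 to 0.696 over the alternatives. Dock2 was also wholly higher, at 578, 539 and 495 CPM in tumors against 480.5, 386 and 358 CPM in controls (0.40 ± 0.23, adjusted p = 0.47). Cdc42 was wholly lower, at 970.2, 573 and 1204 CPM in tumors against 1313, 1308 and 1469.7 CPM in controls (-0.58 ± 0.32, adjusted p = 0.453). Tiam1 had 7.81, 16.7 and 25.9 CPM in tumors against 7.81, 6.09 and 9.10 CPM in controls (1.14 ± 0.46, adjusted p = 0.341), so that VM388 lay within the controls. The other genes overlapped, with changes from -0.22 for Rac2 to 0.21 for Was. Neutrophil markers summed to 167 CPM in tumor VM388, 223 CPM in VM58 and 74938 CPM in VM98, against 6992 to 48924 CPM in controls. B cell markers summed to 1819 to 6208 CPM in tumors, against 6919 to 7834 CPM in controls, and dendritic cell markers to 114 to 206 CPM in tumors, against 274 to 333 CPM in controls. CD8 T cell markers summed to 33.6 to 129.5 CPM in tumors, against 139.9 to 293 CPM in controls, and NK cell markers to 40.3 to 154 CPM in tumors, against 186 to 388 CPM in controls. Their part was not tested.

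CD4+ cells of the CD4-CreERT2 set had 2 libraries in each group, and every one of the 10 genes overlapped between tumor and control. The changes lay between -0.27 for Dock8 and 0.22 for Dock2. Dock8 had 76.6 and 183 CPM in tumors VM231 and VM236, against 155 and 163 CPM in controls (-0.27 ± 0.46, adjusted p = 1). Without VM236 it passed at -1.04 ± 0.19 (adjusted p = 0.0138), a value that rests on 1 tumor library, assumed to vary like the controls. That library held 5884 CPM of neutrophil markers, against 81.1 CPM in VM236 and 41.5 to 61.5 CPM in controls. Macrophage and monocyte markers summed to 3762 to 5319 CPM in tumors, against 578 to 1169 CPM in controls, and B cell markers to 464 to 1494 CPM in tumors, against 2909 to 3059.9 CPM in controls. Plasma cell markers summed to 1411 to 3543 CPM in tumors, against 6557 to 6659.7 CPM in controls, and erythroid markers to 99.6 to 111 CPM in tumors, against 7.91 to 12.8 CPM in controls. Their part was not tested. Vav1 had 216 and 265 CPM in tumors against 252 and 247 CPM in controls, and Vav2 had 9.34 and 24.1 CPM in tumors against 12.1 and 18.5 CPM in controls.

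In spleens of the CD4-CreERT2 set Vav2 had 14.1, 19.6 and 8.95 CPM in tumors VM231, VM236 and VM294, against 46.8, 68.5 and 67.4 CPM in controls, wholly lower in tumors. The log2 fold change was -2.08 ± 0.41 with an adjusted p of 0.122 by edgeR, and -2.02 ± 0.44 with an adjusted p of 0.000202 by DESeq2. Without VM294 it was -1.85 ± 0.29 (edgeR adjusted p = 0.0777), and without VM236 it was -2.29 ± 0.40 and passed (adjusted p = 0.0381). Over the alternatives the adjusted p ranged from 0.000202 to 0.64. B cell markers summed to 1103 to 6443 CPM in these tumors, against 9605 to 9922 CPM in controls, and neutrophil markers to 2599 to 102520 CPM in tumors, against 369.7 to 836 CPM in controls. Macrophage and monocyte markers summed to 6017 to 16349 CPM in tumors, against 1516 to 1883 CPM in controls, and erythroid markers to 202 to 1328 CPM in tumors, against 9.04 to 19.6 CPM in controls. Their part was not tested.

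Dock2 was wholly lower in these tumor spleens, at 379.9, 417 and 109 CPM against 655, 605 and 683 CPM in controls (-1.09 ± 0.54, adjusted p = 0.299). Without VM294 its change was -0.70 ± 0.21 (adjusted p = 0.122). Cdc42 was wholly higher, at 1082, 956 and 1597 CPM in tumors against 894, 826 and 796 CPM in controls (0.57 ± 0.43, adjusted p = 0.476, and 0.29 ± 0.23 without VM294). The VM294 spleen was lowest for several genes. Rac2 had 2157, 1306 and 291 CPM in tumors VM231, VM236 and VM294, against 1155, 1079 and 1113 CPM in controls, and its change was 0.18 ± 0.68 with VM294 and 0.65 ± 0.31 without it (adjusted p = 0.901 and 0.241). Vav1 had 444, 326 and 111 CPM in the same tumors, against 332, 305 and 339 CPM in controls (-0.13 ± 0.52, and 0.26 ± 0.24 without VM294). Dock8 spread over 41.0 to 285 CPM in tumors, against 173 to 251 CPM in controls.

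The tumor effect was also compared between CD4+ cells and spleen within each set. By edgeR none of the 10 genes passed in either set (0% of all genes higher and 0% lower in both), and 0 were called by DESeq2. At an unadjusted p under 0.05 edgeR gave 1 of the 10 genes in each set, against 7.32% of all genes in the CD4-Cre set and 2.59% in the CD4-CreERT2 set. In the CD4-Cre set that gene was Vav1, whose tumor effect in CD4+ cells minus that in spleen was -0.76 ± 0.31 (adjusted p = 0.676). In the CD4-CreERT2 set it was Vav2, at 2.22 ± 0.71 (adjusted p = 0.972).

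Normal tissue was compared as CD4+ cells against whole spleen of control mice. Tiam1 was higher in CD4+ cells in both sets, and no other of the 10 genes passed in both by edgeR without the mouse as a block. In the CD4-Cre set Tiam1 was the 1 gene of the 10 that was higher and Cdc42 the 1 that was lower (12.9% and 12.8% of all genes). In the CD4-CreERT2 set 2 genes, Tiam1 and Rac2, were higher and 2, Vav2 and Dock2, lower (10.3% and 11.3% of all genes). Tiam1 had 24.4, 24.9 and 17.9 CPM in CD4+ cells against 7.81, 6.09 and 9.10 CPM in spleens of the CD4-Cre set (1.54 ± 0.22, adjusted p = 0.00276). It had 17.8 and 22.6 CPM in CD4+ cells against 4.18, 3.83 and 5.08 CPM in spleens of the CD4-CreERT2 set (2.24 ± 0.21, adjusted p = 0.000223). Neither pair of groups overlapped.

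Vav2 was lower in CD4+ cells of the CD4-CreERT2 set, at 12.1 and 18.5 CPM against 46.8, 68.5 and 67.4 CPM in spleens (-1.97 ± 0.24, adjusted p = 0.000709). In the CD4-Cre set it had 31.4, 36.4 and 36.5 CPM in CD4+ cells against 37.2, 48.8 and 40.7 CPM in spleens (-0.28 ± 0.13, adjusted p = 0.157), without overlap. Dock2 had 795, 636 and 485 CPM in CD4+ cells against 480.5, 386 and 358 CPM in spleens of the CD4-Cre set (0.64 ± 0.21, adjusted p = 0.0558), and 420.5 and 416 CPM in CD4+ cells against 655, 605 and 683 CPM in spleens of the CD4-CreERT2 set (-0.61 ± 0.13, adjusted p = 0.0107). The values of Dock2 thus lay on opposite sides of 0 in the sets. Rac2 had 1573 and 1656 CPM in CD4+ cells against 1155, 1079 and 1113 CPM in spleens of the CD4-CreERT2 set (0.56 ± 0.12, adjusted p = 0.0125), and its change was -0.03 ± 0.12 in the CD4-Cre set (adjusted p = 0.872). Cdc42 had 910.0, 995 and 1126 CPM in CD4+ cells against 1313, 1308 and 1469.7 CPM in spleens of the CD4-Cre set (-0.44 ± 0.13, adjusted p = 0.0412), and its change was 0.20 ± 0.13 in the CD4-CreERT2 set (adjusted p = 0.307).

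**Figure D5:**
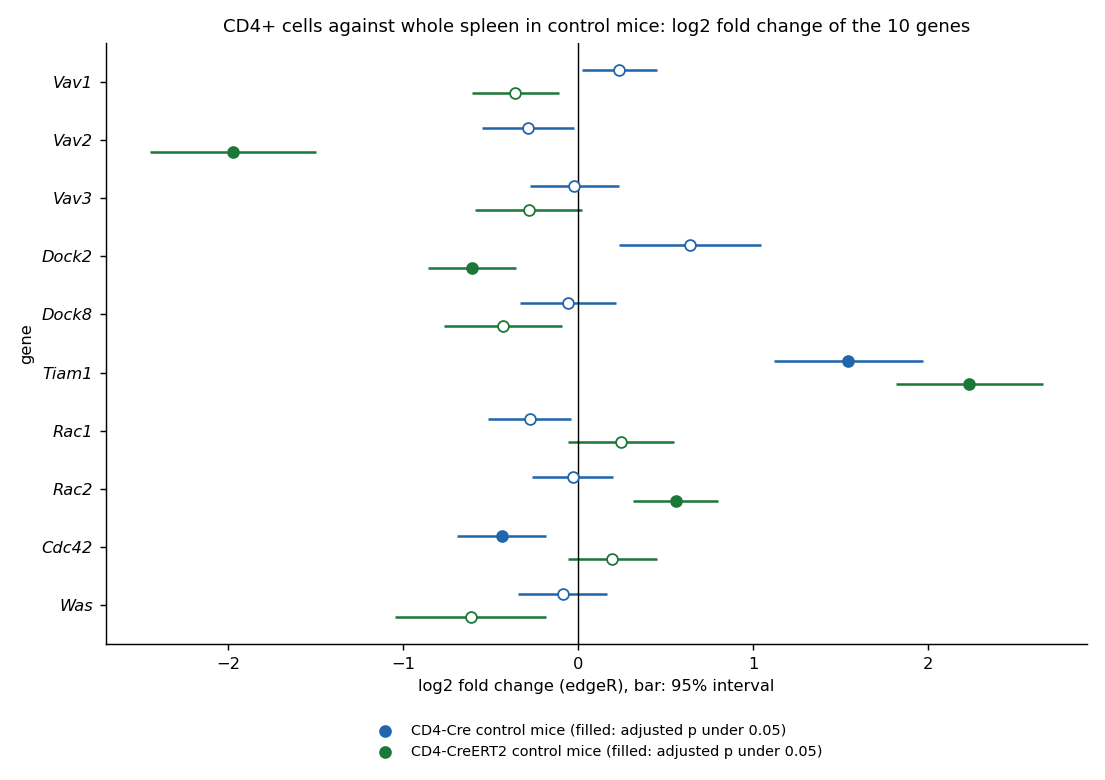
Log2 fold change of each gene in CD4+ cells against whole spleen of control mice from edgeR (x axis), with bars for the 95% interval and filled points where the adjusted p is under 0.05, in the CD4-Cre and CD4-CreERT2 sets. The bars use the normal quantile and are too narrow for so few libraries, so a bar that leaves out 0 is not a pass. Tiam1 is higher in both sets (1.54 and 2.24), and Dock2 lies on opposite sides of 0 (0.64 and -0.61).

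CD4+ and spleen libraries of a set share mouse numbers, and with the mouse as a replicate block more genes passed. In the CD4-Cre controls 4 genes passed in place of 2, with Dock2 (0.62 ± 0.10, adjusted p = 0.00331) and Rac1 (-0.27 ± 0.09, adjusted p = 0.0472) added. In the CD4-CreERT2 controls 6 passed in place of 4, with Vav1 (-0.40 ± 0.16, adjusted p = 0.046) and Was (-0.54 ± 0.20, adjusted p = 0.0262) added. Dock2 stayed past the threshold there (-0.65 ± 0.16, adjusted p = 0.00043). With the block it thus passed in both sets, higher in CD4+ cells of the CD4-Cre controls and lower in those of the CD4-CreERT2 controls. In the CD4-CreERT2 controls A2 has no CD4+ library, so the paired effect rests on mice A1 and A3. That fit leaves little residual spread of its own, and its p-values lean on the spread estimated over all genes. Without the block, 1 gene, Tiam1, was left in the CD4-Cre set without the CD4+ library of VM211 or VM216 or the spleen library of VM216 or VM645, where Cdc42 had adjusted p-values of 0.145, 0.122, 0.0787 and 0.107. Without the spleen library of VM211 Cdc42 did not pass either (adjusted p = 0.0706). In the CD4-CreERT2 set 2 genes, Tiam1 and Vav2, were left without the CD4+ library of A3; Dock2 did not pass without the CD4+ library of A1 (adjusted p = 0.0537), nor Rac2 without the spleen library of A2 (adjusted p = 0.0645).

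The tissues differed in their cells. In the CD4-Cre controls T cell markers summed to 4488 to 5034 CPM in CD4+ cells against 1049 to 1512 CPM in spleens, and B cell markers to 866 to 1392 CPM in CD4+ cells against 6919 to 7834 CPM in spleens. In the CD4-CreERT2 controls T cell markers summed to 5591 to 5673 CPM in CD4+ cells against 1443 to 1856 CPM in spleens, and B cell markers to 2909 to 3059.9 CPM in CD4+ cells against 9605 to 9922 CPM in spleens. Neutrophil markers summed to 6992 to 48924 CPM in CD4-Cre control spleens and to 369.7 to 836 CPM in CD4-CreERT2 control spleens. Macrophage and monocyte markers summed to 5052 to 7406 CPM in CD4+ cells and 13351 to 24556 CPM in spleens of the CD4-Cre controls. In the CD4-CreERT2 controls they summed to 578 to 1169 CPM and 1516 to 1883 CPM. Plasma cell markers summed to 1705 to 7629.6 CPM in CD4+ cells and 7787 to 20115 CPM in spleens of the CD4-Cre controls. In the CD4-CreERT2 controls they summed to 6557 to 6659.7 CPM and 2692 to 5760.7 CPM, higher in CD4+ cells. The part of these cells in the results was not tested.

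Of the 15 genes upstream of Vav, 10 were higher and 2 lower in CD4+ cells of the CD4-Cre controls, and 9 were higher and 3 lower in those of the CD4-CreERT2 controls. Over all genes 12.9% were higher and 12.8% lower in the CD4-Cre controls, and 10.3% higher and 11.3% lower in the CD4-CreERT2 controls. Zap70, the kinase that binds the T cell receptor, was higher by 2.45 ± 0.23 and 1.74 ± 0.14 (adjusted p = 0.000537 and 0.00013). Lat, its membrane adaptor, was higher by 2.22 ± 0.15 and 1.51 ± 0.17 (adjusted p = 0.000151 and 0.00041). Of 36 other exchange factors tested, 9 were higher and 5 lower in the CD4-Cre controls and 0 were higher and 13 lower in the CD4-CreERT2 controls. Swap70, an exchange factor of B cells, was lower in CD4+ cells of both sets (-1.65 ± 0.19 and -1.89 ± 0.23, adjusted p = 0.00126 and 0.000744), as was the Cdc42 factor Fgd4 (-1.45 ± 0.19 and -2.34 ± 0.37, adjusted p = 0.00219 and 0.00261). Of 30 GTPase-activating proteins and dissociation inhibitors, 12 were higher and 2 lower in the CD4-Cre controls, but 3 were higher and 9 lower in the CD4-CreERT2 controls. Chn1, a Rac GTPase-activating protein of the chimaerin family, was higher in both sets (4.02 ± 0.66 and 2.74 ± 0.26, adjusted p = 0.00519 and 0.000211).

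In tumors none of the 10 genes passed between CD4+ cells and spleen, by edgeR or by DESeq2, in the CD4-Cre set (0% of all genes higher and 0% lower) or in the CD4-CreERT2 set (0% higher and 0% lower). At an unadjusted p under 0.05 edgeR gave 1 gene, Tiam1, in the CD4-Cre set (14.2% of all genes) and 0 in the CD4-CreERT2 set (3.85%). Tiam1 had 39.7, 33.8, 31.3 and 27.6 CPM in CD4+ tumor cells against 7.81, 16.7 and 25.9 CPM in tumor spleens of the CD4-Cre set, without overlap (0.98 ± 0.40, adjusted p = 0.319). In the CD4-CreERT2 set it had 12.9 and 20.2 CPM in CD4+ tumor cells against 12.8, 4.32 and 6.35 CPM in tumor spleens (1.06 ± 0.73, adjusted p = 1).

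Over the 31 libraries, with log2 CPM centred within each set, the genes whose levels ran most like those of Vav1 among 8349 genes were Dctn1 (Pearson's r = 0.901), Zfyve27 (0.899), Neu1 (0.899), Vac14 (0.890) and Ttc13 (0.878). These are descriptions without a test, since libraries of 1 mouse or tissue are not independent.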

How the data were processed

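PolyA RNA of 31 mouse libraries was read from the deposited gene counts, which are whole read counts per gene and not normalized. Per the labels, RNA was made into cDNA with SMART-Seq v4 and into libraries with Nextera XT, and per the submitters' processing notes the tools were HISAT2 2.1.0 and HTSeq 0.5.4, with the build mm10 for 21 libraries and mm10 and GRCm38 for 10. The annotation release and the strand setting are not given in the sources used here. The 10 genes and the lists were chosen with earlier results of these data known. Rows that name no gene held 27.2% to 31.9% of the counts in the pre-lymphoma libraries and 32.7% to 46.0% in the CD4-Cre libraries, and were left out of library sizes and tests.

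Counts were scaled by TMM and tested with edgeR 4.0.16 (quasi-likelihood, limma 3.58.1, R 4.3.3) over all genes that passed filterByExpr, with Benjamini-Hochberg adjustment at 0.05. Each set was fitted by itself, and 13 comparisons were made. Nothing in the labels says that libraries of a group come from separate litters or cultures, so a p-value here covers library-to-library spread, which may be technical. The scripts were tested on simulated data. DESeq2 1.42.0, RLE scaling, scaling without receptor, haemoglobin and mitochondrial genes, no filter, other sets of libraries in the fit, a term for sex, the mouse as a block and leaving out each library were the alternatives. CD4+ and spleen libraries carry the same mouse number in their titles and were taken as pairs on that ground. Deviations from the group means correlated at 0.39 to 0.584 in the 6 CD4-Cre pairs and at -0.102 to 0.477 in the 4 CD4-CreERT2 pairs. Titles give VM645 both to a tumor library and to control libraries, and fits without them were run. Pathway genes were named by the size of their change among those past the threshold, up to 4 for each list and comparison, and some of them are not reported here. Levels per kb used the exon lengths of the CD4-CreERT2 tables. Intervals of 95% were computed from the standard error and the normal quantile, which makes them too narrow for so few libraries. Some leave out 0 where the test does not reach an unadjusted p of 0.05. An example is Vav1 in CD4+ cells against spleen of CD4-Cre controls (0.02 to 0.45, edgeR unadjusted p = 0.0645).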

Additional observations from a re-analysis of the deposited data

Results flagged for a closer look

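Cdc42 in the CD4-Cre CD4+ tumor library of VM58 stood far below the other tumors of its group, at 525 CPM, against 855 to 912 CPM in the other 3. It was the 1 such library over the 10 genes in the group of 4. Chance gives such a gap in about 1 in 20 of the genes looked at, so 1 among 10 is a count that chance alone can give.

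The libraries of some genes moved in opposite directions in the 2 driver sets, and these differences between sets were not tested. Of 40 pairs of a gene and a comparison, the 5 below had groups without overlap in both sets and opposite directions. The share of all genes with this pattern was not computed, and groups this small can lie apart by chance. Dock2 in tumor against control spleens changed by 0.40 in the CD4-Cre set and by -1.09 in the CD4-CreERT2 set. Cdc42 in the same comparison changed by -0.58 in the CD4-Cre set and by 0.57 in the CD4-CreERT2 set. In CD4+ cells against spleen of control mice Vav1 changed by 0.23 in the CD4-Cre set and by -0.36 in the CD4-CreERT2 set. In that comparison Dock2 changed by 0.64 and -0.61 and Cdc42 by -0.44 and 0.20 in the same order of sets. These values are log2 fold changes from edgeR.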

How the results depend on the processing

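Of 1670 log2 fold changes recomputed for the 10 genes under the alternatives, 1605 stayed on their side of the threshold, 36 came to pass it and 29 no longer passed it. Most of the 1670 belong to values that did not pass in the main fit and so could not be lost. The 29 fall on the few values that did pass and are not a share of 1670. Of the 1605, 108 changed sign, none of them past the threshold, and no called value changed sign. Leaving out each library in turn gave 6 to 7 of the 10 genes in fusion/fusion against control, 1 to 5 in control/fusion against control, 1 to 3 in fusion/fusion against control/fusion, 0 to 1 in CD4-CreERT2 CD4+ tumors, 0 to 1 in CD4-CreERT2 tumor spleens, 1 to 3 in CD4+ cells against spleen of CD4-Cre controls and 2 to 6 in that of CD4-CreERT2 controls. In fusion/fusion against control/fusion the count was 4 with DESeq2, 4 without a filter and 4 with scaling over the other genes, in place of 2. DESeq2 called 1 gene in CD4-Cre CD4+ tumors, 1 in CD4-Cre tumor spleens and 1 in CD4-CreERT2 tumor spleens, where edgeR called 0. The mouse as a replicate block gave 4 genes in place of 2 in the CD4-Cre controls and 6 in place of 4 in the CD4-CreERT2 controls, and the cause of these differences was not tested. No share of all genes called is given here for any of these alternatives, so the counts stand without a background. Of 110 ranks of a gene within a group, 65 were different without division by exon length.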
